A study of Mus musculus with 18 samples.

Results

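The nuclear factor I family, which in the mouse consists of Nfia, Nfib, Nfic and Nfix, was followed across 18 whole-genome expression arrays. The members were all probes that the array annotation assigns to these 4 genes, 21 of 45281 probes on the array, and 4 of 19057 genes with at least 1 probe of a single symbol. Nfia had 2 probes, Nfib 11, Nfic 4 and Nfix 4. The probe of each gene with the highest mean over the 18 arrays stood for the gene, and every other probe is described beside it. Levels are normalized log2 intensities, on which a difference of 1 is a doubling. Level 5 was taken as a limit near background, since the median of every array was 4.13, and no level of one probe was set against that of another probe.

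The study asked which genes depend on Norrin, the product of Ndp, in the Sonic hedgehog (Shh) subgroup of medulloblastoma (MB) and in the cells it arises from. One MB came from an NdpKO;Ptch+/- mouse and 1 from a Ptch+/- mouse, each on a single array and dissected from the cerebella of animals with symptoms. Granule neuron progenitors (GNPs) were purified by Percoll gradient and pre-plating from cerebella at postnatal day 6 of NdpKO;Ptch+/-, NdpKO, Ptch+/- and wild-type (WT) mice, with 4 arrays per genotype that the study describes as different animals. NdpKO mice carry a lacZ cassette in the X-linked Ndp locus and had a mixed background, the compound mutants came from crosses of Ndp+/- females with Ptch+/- males, and Ptch+/- and WT mice were labelled C57Bl/6. The labels give no background for most compound mutants. The study's methods state that compound mutants were set against controls of their own breeding cohort, with the Ndp-deficient animals of these crosses being male and the controls of either sex. Ptch+/- and WT GNPs share a strain label, whereas for NdpKO against WT the labelled backgrounds differ and cannot be told apart from the genotype. No transgene or Cre was used, and the deletion of Ndp was in all cells of the animal. The labels give postnatal day 6 also for both tumours, which does not match their description as tumours of symptomatic mice.

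Nuclear factor I proteins are transcription factors that bind DNA as dimers, each subunit contacting a TTGGC half-site. In the developing nervous system of the mouse they are known for starting the glial programme, where Nfia acts together with Sox9, and for repressing genes of the progenitor state. In cerebellar granule neurons they are known for driving the later steps of maturation, including axon formation, migration and the switch to the adult receptor subunits.

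Promoter windows were looked up because 3 of the 4 genes were higher in the tumours. RefSeq windows of 300 bases (250 before and 50 after a transcription start, build GRCm38.p6) were found for 3 of the 4 genes, with 1 window each for Nfia and Nfic, 4 for Nfix, and no entry for Nfib. They were searched on both strands for the half-site TTGGC, which 46.7% of 32851 windows in the table hold at least once, and for the full palindrome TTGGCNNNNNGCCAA, which 0.0365% hold. The windows of Nfia and Nfic held neither. Of the 4 windows of Nfix, 3 held the half-site, and the one printed held it 2 times, once on each strand, in an order that is not the palindrome. The Nfia window (chr4:97581693-97581992, plus strand), the Nfic window (chr10:81427124-81427423, minus strand) and this Nfix window (chr8:84772826-84773125, minus strand) read as follows, with half-sites on either strand in capitals.
Nfia: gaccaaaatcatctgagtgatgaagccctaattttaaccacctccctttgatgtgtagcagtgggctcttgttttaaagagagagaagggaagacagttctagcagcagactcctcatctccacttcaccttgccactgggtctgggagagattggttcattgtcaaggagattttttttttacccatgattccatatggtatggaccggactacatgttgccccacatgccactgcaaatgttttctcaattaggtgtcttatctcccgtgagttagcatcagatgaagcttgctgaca
Nfic: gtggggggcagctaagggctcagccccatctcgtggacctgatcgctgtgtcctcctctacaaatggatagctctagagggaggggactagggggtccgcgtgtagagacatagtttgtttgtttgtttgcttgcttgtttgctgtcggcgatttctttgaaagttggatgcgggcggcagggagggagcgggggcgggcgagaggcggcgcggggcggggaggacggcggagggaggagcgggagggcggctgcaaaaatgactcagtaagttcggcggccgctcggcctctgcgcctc
Nfix: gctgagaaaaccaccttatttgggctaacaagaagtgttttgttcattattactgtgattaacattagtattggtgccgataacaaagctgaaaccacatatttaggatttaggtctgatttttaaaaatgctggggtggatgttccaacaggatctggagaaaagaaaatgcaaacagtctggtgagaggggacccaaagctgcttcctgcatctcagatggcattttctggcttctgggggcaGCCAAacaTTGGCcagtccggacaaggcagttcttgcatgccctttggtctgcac
A match is a run of letters and not a shown binding site, and where none was found this says only that these letters are not in the window.

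Among the checks on the arrays, the Ndp probe lay between 4.10 and 4.13 in all 6 groups, WT included, so it could not check the knockout. The brightest Ptch1 probe did follow the labels of the GNPs, at 7.80 to 8.23 in NdpKO;Ptch+/-, 8.65 to 8.97 in NdpKO, 7.63 to 7.94 in Ptch+/- and 8.56 to 8.70 in WT GNPs. In the tumours the same probe was 7.01 (NdpKO;Ptch+/-) and 8.69 (Ptch+/-), so the Ptch+/- tumour lay above all Ptch+/- GNPs and within the range of WT GNPs. For replicate 2 of the NdpKO;Ptch+/- GNPs the title gives the compound genotype and the other labels give Ndp knockout alone. It was kept with its title, and its Ptch1 level was 7.80. On the first principal component of the GNP arrays, which held 43.6% of the variance, 3 NdpKO;Ptch+/- arrays and all WT arrays lay on one side (-23.07 to -8.41), and 3 NdpKO arrays and all Ptch+/- arrays on the other (12.62 to 20.01). NdpKO replicate 4 at -15.24 and NdpKO;Ptch+/- replicate 1 at 16.58 lay opposite to the rest of their groups. The main axis of all these arrays thus separated most single mutants from WT and most compound mutants. The study's own component analysis of GNPs was reported to give no clear separation of the mutants. It left out poorly annotated probes, which was not done here. Results between GNP genotypes are given with and without NdpKO replicate 4 and NdpKO;Ptch+/- replicate 1 where this matters, a choice made after seeing the data. Of the GNP markers, Zic1, Zic2, Barhl1, Meis1 and Neurod1 were above level 5 on every array, whereas Atoh1 and Pax6 stayed below it on every array. The study detected Atoh1 in tumours by in situ hybridization and Pax6 in GNPs by immunostaining, so these probes do not show that either gene was absent. In whole-cell samples such as these, fewer cells of a type and less RNA per cell cannot be told apart, and the small number of arrays limits the precision of every value.

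Nfia, Nfib and Nfic were higher in the tumours than in GNPs of the same genotypes, Nfia by 3.42-fold, Nfic by 2.85-fold and Nfib by 1.40-fold on their brightest probes, whereas Nfix did not pass the test. Over all 21 probes, 15 were called higher and 0 lower in the tumours (16 higher and 0 lower at an unadjusted limma p under 0.05, where 14.0% and 11.3% of all probes were), against a background of 8.61% called higher and 6.06% called lower among all probes. Among them, 4 reached level 5 only in the tumours. Of the 14 probes at or above level 5 on all 18 arrays, 11 were called higher, where 15.9% of all probes this bright were, and the median difference over the 21 probes was 1.18 on the log2 scale, against -0.00051 for all probes on the array. Both tumours lay above all 8 GNP arrays of their genotypes for 16 of the 21 probes, where 11.3% of all probes did so. Without the NdpKO;Ptch+/- tumour the log2 differences of the brightest probes were 1.52 for Nfia, 1.43 for Nfic, 0.42 for Nfib and 0.08 for Nfix. Without the Ptch+/- tumour they were 2.02, 1.59, 0.56 and 0.61. Nfix ILMN_2606700 was -0.58 without the NdpKO;Ptch+/- tumour and 0.72 without the Ptch+/- tumour. The fit used limma with tissue and genotype as terms, 2 tumour and 8 GNP arrays, and Benjamini-Hochberg adjustment over all probes, with a call at an adjusted p under 0.05. Each genotype had 1 tumour, so the spread in this test came from the GNPs and from tumour differences beyond the genotype term. The latter part was large for some probes. Nfib ILMN_2566674 had an SE of 0.33 in this test, against 0.0070 between GNP genotypes. For Nfix ILMN_2606700 these were 0.25 and 0.063. The tumours were dissected from symptomatic mice, whereas the GNPs were purified at postnatal day 6. Tumour state, age and purification thus change together and cannot be told apart.

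Nfia, the member most closely tied to the onset of gliogenesis, stood at 11.82 in the NdpKO;Ptch+/- tumour and 11.56 in the Ptch+/- tumour, against 9.96, 9.76, 9.86 and 9.61 in NdpKO;Ptch+/- GNPs and 10.03, 10.08, 9.91 and 10.16 in Ptch+/- GNPs. Both tumours were above every GNP array by more than the whole range of the GNPs. The log2 difference was 1.77 ± 0.13 (SE, limma adjusted p = 6.37e-05). The second Nfia probe was near background on all arrays, between 4.10 and 4.13, and measured nothing in either tissue.

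Nfic, whose known roles lie largely outside the brain, for instance in tooth root formation, had 9.54 in the NdpKO;Ptch+/- tumour and 9.60 in the Ptch+/- tumour. In GNPs it had 8.06, 7.85, 8.05 and 7.82 (NdpKO;Ptch+/-) and 8.01, 8.31, 8.20 and 8.15 (Ptch+/-). The tumours did not overlap the GNPs, and the log2 difference was 1.51 ± 0.09 (SE, limma adjusted p = 2.54e-05). The other 2 Nfic probes that were bright on all arrays were called higher as well, by 1.44 and 2.03. The fourth, ILMN_3022492, was below level 5 on all 16 GNP arrays and reached 5.08 in the NdpKO;Ptch+/- tumour and 5.58 in the Ptch+/- tumour, which makes it at least 1.25-fold higher in the tumours.

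Nfib, which shares the glial role of Nfia and is needed for late granule neuron development, was called higher in the tumours on 10 of its 11 probes, but the size of the difference varied widely between probes. The brightest had 12.89 in the NdpKO;Ptch+/- tumour and 12.59 in the Ptch+/- tumour, against 12.46, 12.33, 12.05 and 12.48 in NdpKO;Ptch+/- GNPs and 12.09, 12.30, 12.15 and 12.16 in Ptch+/- GNPs. This was a log2 difference of 0.49 ± 0.11 (SE, limma adjusted p = 0.0226), the lowest of the 10, and it was no longer called without the NdpKO;Ptch+/- tumour (adjusted p = 0.190) or without the Ptch+/- tumour (adjusted p = 0.0864). The next 2 probes by mean level gave 0.93 and 1.04, at limma adjusted p of 7.66e-04 and 8.42e-04.

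The largest Nfib differences were on dimmer probes. ILMN_1256427 had 10.07 in the NdpKO;Ptch+/- tumour and 10.02 in the Ptch+/- tumour, against 7.05, 5.37, 6.70 and 6.53 in NdpKO;Ptch+/- GNPs and 7.45, 7.30, 6.64 and 7.30 in Ptch+/- GNPs. Its difference was 3.25 ± 0.43 on the log2 scale (SE, limma adjusted p = 0.00159), so the tumours stood far outside the GNP range. ILMN_2573881 was below level 5 on all 16 GNP arrays, at 4.16 to 4.70, and reached 9.01 in the NdpKO;Ptch+/- tumour and 8.43 in the Ptch+/- tumour, at least 13.2-fold higher. ILMN_2587277 and ILMN_2566674 were also below level 5 in all GNPs. They had 6.44 and 6.85 in the NdpKO;Ptch+/- tumour, but only 5.38 and 5.02 in the Ptch+/- tumour. By the mean of both tumours they were at least 1.88-fold and 1.91-fold higher, with the Ptch+/- tumour close to level 5. These 4 probes are among the 8 Nfib probes annotated to a cDNA sequence other than a RefSeq transcript, while the 3 brightest are annotated to a RefSeq transcript. Where these cDNAs lie in the Nfib gene is not given in the sources used here, so whether they report the same transcript as the brightest probe was not tested. The last probe, ILMN_1257943, stayed near background on all arrays.

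Nfix, the member known for the timing of progenitor differentiation and for repressing Bbx in mouse neural progenitors, was 13.14 in the NdpKO;Ptch+/- tumour and 12.75 in the Ptch+/- tumour. In GNPs it was 12.56, 12.52, 12.52 and 12.52 (NdpKO;Ptch+/-) and 12.63, 12.74, 12.68 and 12.63 (Ptch+/-). The Ptch+/- tumour was barely above the highest of its GNPs, and the log2 difference of 0.34 ± 0.10 was not called (SE, limma adjusted p = 0.0593, 95% interval 0.11 to 0.58). Without the Ptch+/- tumour the difference was 0.61 and called (limma adjusted p = 1.01e-04), and without the NdpKO;Ptch+/- tumour it was 0.08 (adjusted p = 0.339). Of the other Nfix probes none was called. ILMN_2606700 had 10.15 in the NdpKO;Ptch+/- tumour, above its GNPs at 9.30 to 9.55, and 8.90 in the Ptch+/- tumour, below its GNPs at 9.42 to 9.64. The tumours thus lay on opposite sides of their GNPs for this probe.

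**Figure D1:**
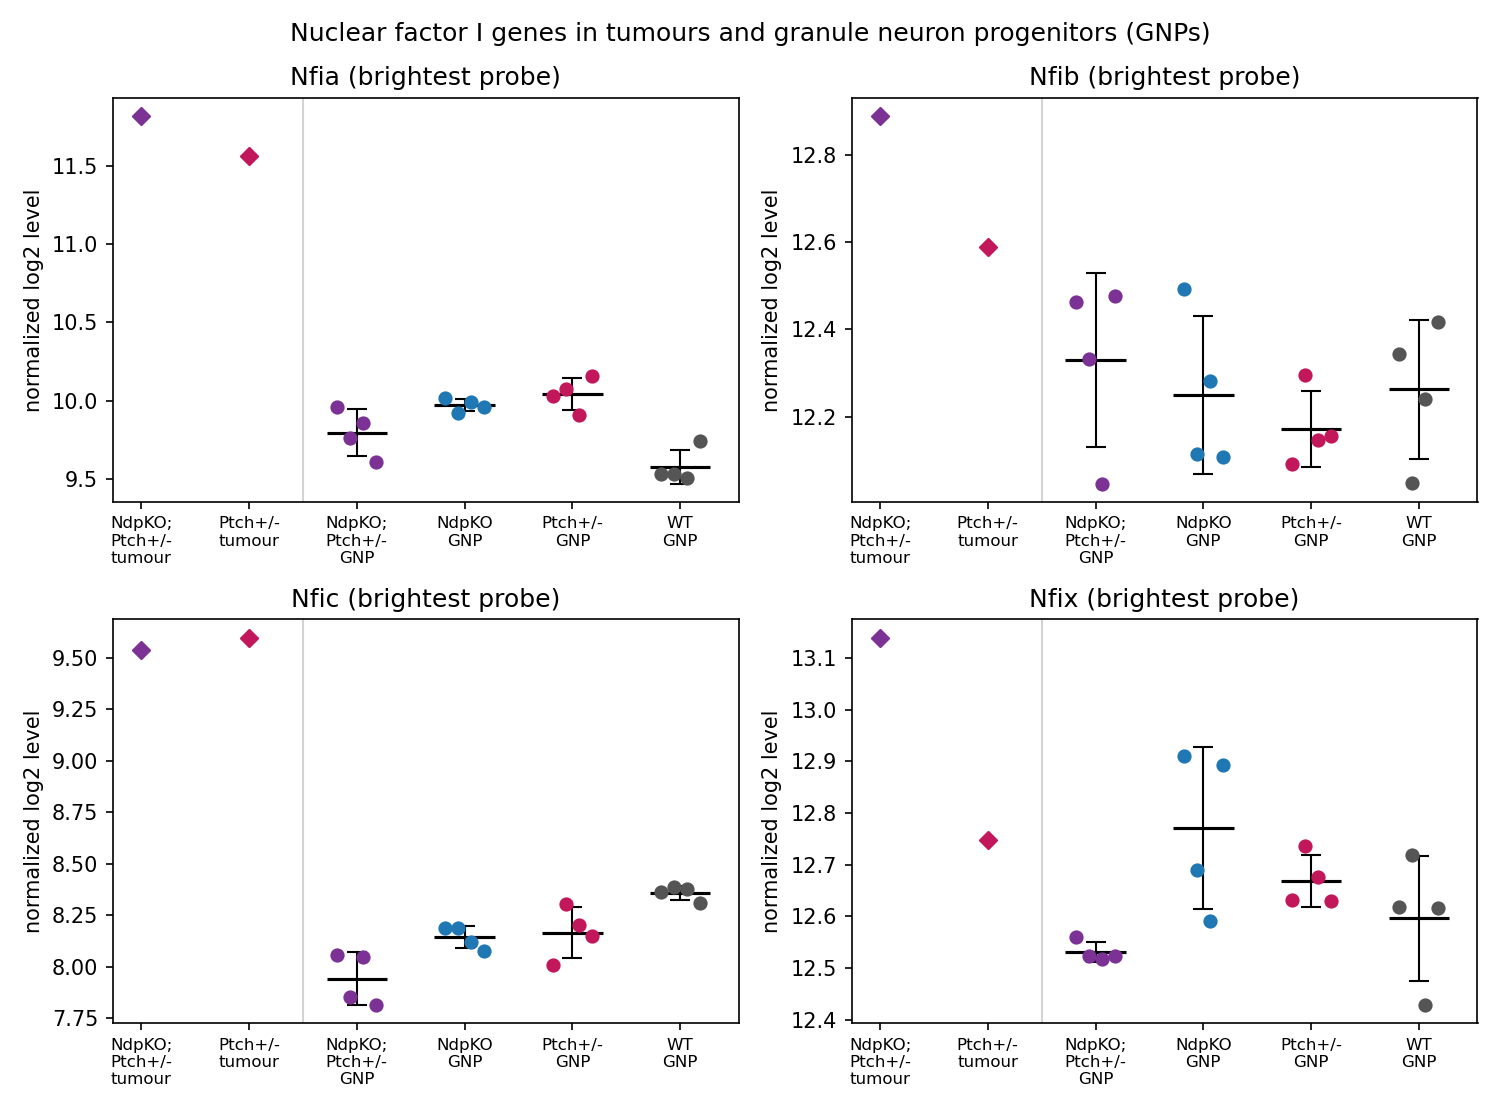
Normalized log2 level (vertical axis) of the brightest probe of Nfia, Nfib, Nfic and Nfix on each array, by group (horizontal axis). Diamonds are the single tumours and circles the GNP arrays, with a bar at the mean and whiskers of 1 SD (n = 4). Nfia at 11.56 to 11.82 and Nfic at 9.54 to 9.60 in the tumours lie far above all GNPs, and WT GNPs have the lowest Nfia and the highest Nfic among the GNP groups.

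The tumours were also set side by side, with no test, since each is 1 array. Of the 14 probes bright on all arrays, 12 were higher and 2 lower in the NdpKO;Ptch+/- tumour than in the Ptch+/- tumour, with a median log2 difference of 0.31, against -6.62e-05 for all probes on the array and 50.1% of bright probes positive. By brightest probe, Nfix differed by 0.39, Nfib by 0.30, Nfia by 0.25 and Nfic by -0.06. Differences of at least 0.5, reached by 4.92% of all probes, were found for Nfib probes ILMN_1227325 (9.45 in the NdpKO;Ptch+/- tumour and 8.25 in the Ptch+/- tumour), ILMN_2573881, ILMN_2587277 and ILMN_2566674, and for the 3 Nfix probes other than the brightest. In the other direction Nfic ILMN_3022492 passed this size, as 4.98% of all probes did, at 5.08 in the NdpKO;Ptch+/- tumour and 5.58 in the Ptch+/- tumour. The widest of these on a probe bright on all arrays was Nfix ILMN_2606700, 2.38-fold higher in the NdpKO;Ptch+/- tumour.

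**Figure D2:**
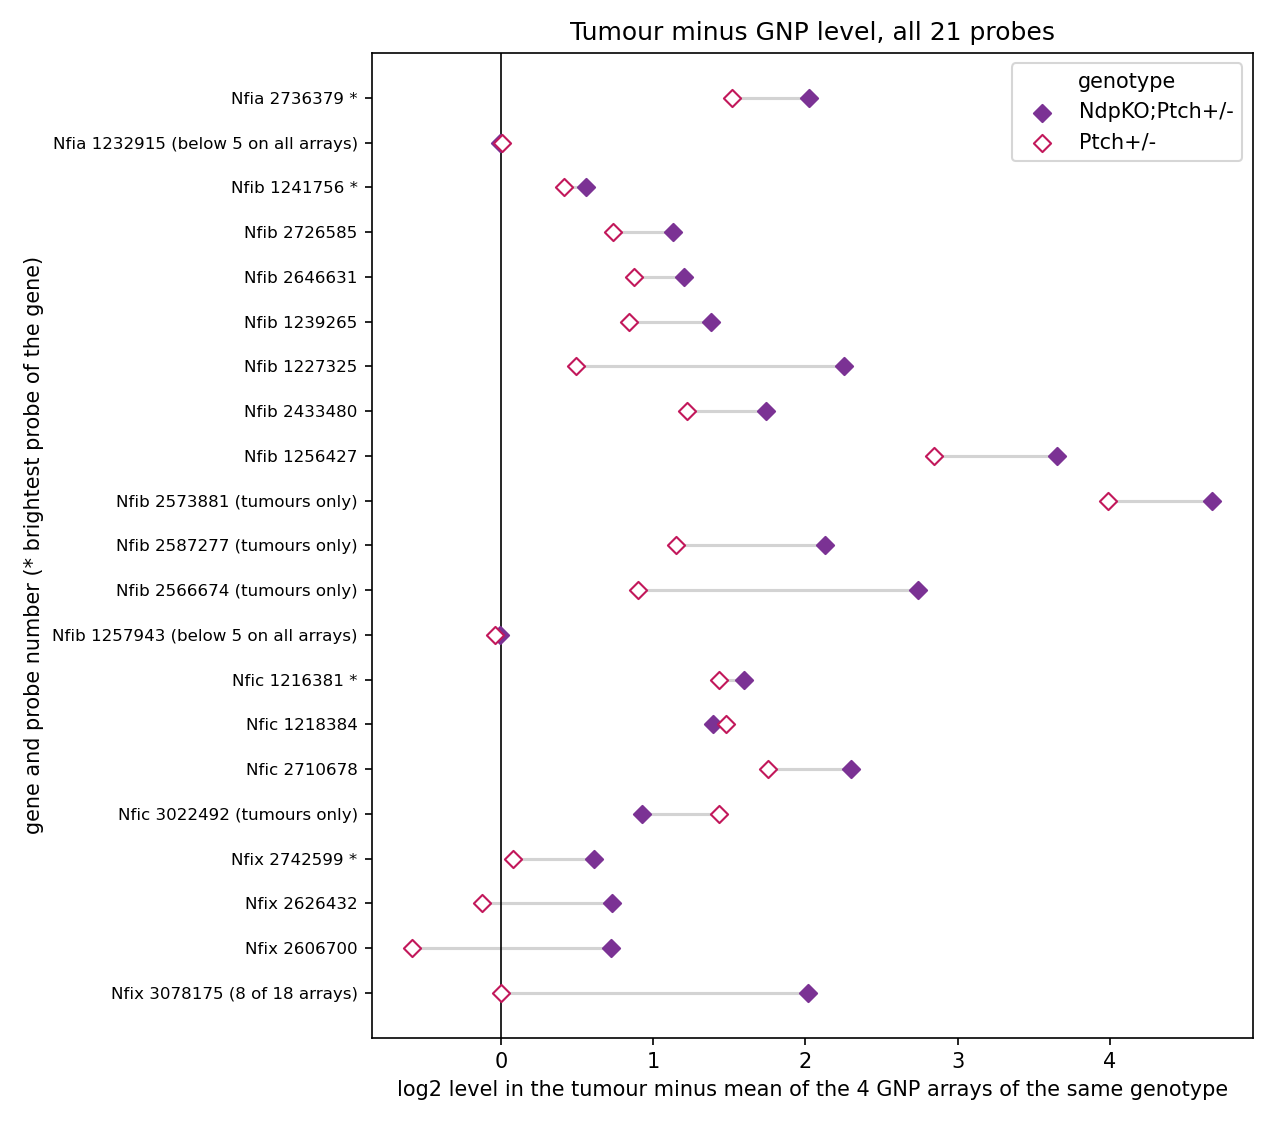
Log2 level in each tumour minus the mean of the 4 GNP arrays of the same genotype (horizontal axis) for all 21 probes (vertical axis, brightest first within each gene). Filled diamonds are NdpKO;Ptch+/- and open ones Ptch+/-. All Nfib and Nfic probes other than the near-background Nfib ILMN_1257943 lie to the right of 0 in both genotypes, while 2 Nfix probes are at 0.73 and 0.72 in NdpKO;Ptch+/- and at -0.13 and -0.58 in Ptch+/-.

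Genes known as targets or partners of the family did not move together in the tumours. A listed gene counted as reaching level 5 if it did so on any array, tumours included. Of all probes with a mean of at least 5, 37.9% were called between tumours and GNPs, and 15.2% were called higher. Of 8 glial genes linked to nuclear factor I, 3 were called higher and 0 lower among the 6 that reached level 5, with a median difference of 1.04 over those 6. They were Gfap, the astrocyte intermediate filament (10.28 in the NdpKO;Ptch+/- tumour and 9.91 in the Ptch+/- tumour, difference 1.84 ± 0.31, limma adjusted p = 0.00569), Sox9, the partner of Nfia at the start of gliogenesis (1.09 ± 0.20, adjusted p = 0.00884), and Zcchc24 (1.52 ± 0.14, adjusted p = 2.29e-04). Apcdd1 and Mmd2, which Nfia and Sox9 switch on in the embryonic spinal cord, had differences of -0.52 and 0.04 that were not called. For Mmd2 the tumours lay on opposite sides of their GNP means. It was 9.25 in the NdpKO;Ptch+/- tumour against 10.20, and 10.95 in the Ptch+/- tumour against 9.93. Slc1a3 had a difference of 0.99 that was not called. Of 9 granule neuron genes linked to the family, 4 reached level 5. Among these 0 were called higher and 1 lower, namely Nfatc4, a calcium-regulated factor known to hold back nuclear factor I targets in immature granule neurons. It was below level 5 in both tumours, at 4.15 in NdpKO;Ptch+/- and 4.55 in Ptch+/-, against GNP means of 6.11 and 6.91. Cntn2, an axonal adhesion molecule, was 11.25 in the NdpKO;Ptch+/- tumour and 10.72 in the Ptch+/- tumour, with a difference of 0.37 that was not called. Gabra6, the receptor subunit of mature granule neurons, was near background on all arrays, as were Cdh2, Wnt7a, Rest and Grin2c.

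The 3 genes known to be repressed by the family also went different ways. Hes1, a Notch effector that keeps progenitors undifferentiated, was 5.78 in the NdpKO;Ptch+/- tumour and 5.82 in the Ptch+/- tumour, against GNP means of 8.01 and 8.17, and fell by 2.29 ± 0.22 on the log2 scale (SE, limma adjusted p = 2.87e-04). Bbx was 6.77 in the NdpKO;Ptch+/- tumour and 7.61 in the Ptch+/- tumour, against GNP means of 5.13 and 5.29, and rose by 1.98 ± 0.20 (limma adjusted p = 4.48e-04). Ezh2, a histone methyltransferase of proliferating progenitors, had a difference of 0.37 that was not called (limma adjusted p = 0.113). Of 12 genes of the granule lineage, 9 reached level 5, 1 of them was called higher in the tumours (Barhl1, 1.23) and 4 lower, namely Zic2 (-1.56), Neurod2 (-4.61), Rbfox3 (-0.35) and Kcnd2 (-3.99). Neurod2 and Kcnd2 were below level 5 in the Ptch+/- tumour.

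Markers of other cells moved between tumours and GNPs as well, and their part in the difference of the family was not tested. The background is again all probes with a mean of at least 5, of which 37.9% were called and 15.2% called higher. All 8 microglial markers were called higher in the tumours. Their summed linear level was 3817 in the NdpKO;Ptch+/- tumour and 7423 in the Ptch+/- tumour, against 564 to 884 in NdpKO;Ptch+/- GNPs and 565 to 988 in Ptch+/- GNPs. Of 12 astrocyte and Bergmann glia markers, 10 reached level 5, 4 of them were higher and 2 lower, and their sum was 17529 in the NdpKO;Ptch+/- tumour and 31634 in the Ptch+/- tumour, against 12686 to 16450 in NdpKO;Ptch+/- GNPs and 8658 to 11448 in Ptch+/- GNPs. The astrocyte markers S100b and Fabp7 were near background on all arrays. Of 6 measured oligodendrocyte lineage markers 2 were higher (Olig1 and Pdgfra) and 2 lower (Mbp and Mog), with Olig2 near background. Of the endothelial, mural and fibroblast, and Purkinje cell and interneuron markers that reached level 5, none was called higher. Called lower were 3 of 9, 3 of 4 and 2 of 4.

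Among the GNPs, Nfia was the only family gene called between genotypes on its brightest probe, being higher in Ptch+/- than in WT GNPs. Its unadjusted limma p was 3.33e-05 there. The brightest Nfic probe had 2.66e-05 in NdpKO;Ptch+/- against WT, where it just missed the adjusted threshold. Nfia had 9.96, 9.76, 9.86 and 9.61 in NdpKO;Ptch+/- GNPs and 10.02, 9.92, 9.99 and 9.96 in NdpKO GNPs. Its values were 10.03, 10.08, 9.91 and 10.16 in Ptch+/- GNPs and 9.53, 9.53, 9.51 and 9.74 in WT GNPs. No array of either single mutant overlapped WT, a higher position that 2.90% of all probes had in NdpKO and 4.79% in Ptch+/- GNPs. The NdpKO;Ptch+/- arrays overlapped WT, NdpKO and Ptch+/-. In the order of the means, Ptch+/- (10.04 ± 0.10, SD, n = 4) and NdpKO (9.97 ± 0.04) overlapped each other, followed by NdpKO;Ptch+/- (9.79 ± 0.15) and WT (9.58 ± 0.11).

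For Ptch+/- against WT the log2 difference in Nfia was 0.46 ± 0.07, or 1.38-fold (SE, limma adjusted p = 0.0168, with 1.09% of all probes called). It just missed the threshold without Ptch+/- replicate 1 or replicate 2, where the limma adjusted p was at most 0.0515. For NdpKO against WT it was 0.39 ± 0.07 and just missed the threshold (limma adjusted p = 0.0505), where 0.307% of all probes were called. Without the 2 arrays that stood apart, picked after seeing the data, it was 0.40 and called (limma adjusted p = 0.0241), where 1.1% of all probes were called higher. NdpKO;Ptch+/- differed from WT by 0.22 ± 0.07 (limma adjusted p = 0.524, with 0.0508% of all probes called), from Ptch+/- by -0.25 ± 0.07 (adjusted p = 0.346, with 0.0155% called) and from NdpKO by -0.18 ± 0.07 (adjusted p = 0.873, with 0.00442% called), and none of these was called. Over the whole family, 0 of 21 probes were called in these 3 comparisons, where 4, 4 and 7 had an unadjusted limma p under 0.05, as 6.95%, 8.67% and 5.60% of all probes did. Against WT, 2 were higher and 2 lower. All 4 against Ptch+/- and all 7 against NdpKO were lower, as 4.68% and 3.07% of all probes were. For Ptch+/- against WT, 1 probe was called higher and 1 lower (0.592% and 0.499% of all probes), and for NdpKO against WT 1 higher and 0 lower (0.152% and 0.155% of all probes, with 7 higher and 2 lower at an unadjusted limma p under 0.05, where 5.66% and 5.23% of all probes were). The 3 comparisons with WT share the same 4 WT arrays and are not independent of each other.

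The interaction of Ndp loss and Ptch heterozygosity, that is the effect of Ptch heterozygosity in NdpKO GNPs minus that in GNPs with intact Ndp, was -0.64 ± 0.11 for Nfia (SE, limma adjusted p = 0.0330, with 0.495% of all probes called). Nfia was the 1 of 21 family probes called lower for it, and 0 were called higher (0.274% of all probes lower and 0.221% higher), with 8 lower and 1 higher at an unadjusted limma p under 0.05, where 7.18% and 6.16% of all probes were. The call was close to the threshold and was lost without 12 of the 16 arrays taken singly. It held without NdpKO;Ptch+/- replicate 1, NdpKO replicate 4, Ptch+/- replicate 3 or WT replicate 4, and its limma adjusted p ranged from 0.00985 to 0.0776 over all 16. Leaving out NdpKO replicate 4 and NdpKO;Ptch+/- replicate 1 together gave -0.70 (limma adjusted p = 0.00370). Then 4 family probes were called lower, namely Nfia, Nfib ILMN_1239265 and ILMN_1256427, and Nfix ILMN_2626432, where 2.86% of all probes were, up from 0.274%. These arrays were picked after seeing the data, for lying opposite to their groups on an axis that runs along the interaction. A stronger interaction without them is favoured by that choice and is no separate support. When replicate 2 of the compound mutant was moved to the NdpKO group, it was -0.59 and not called (limma adjusted p = 0.121).

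Markers of several other cell types were lower in both single mutants than in WT in the same arrays, few of them called. Of all probes with a mean of at least 5, 1.04% were called in NdpKO against WT. This share was 3.59% in Ptch+/- against WT and 1.68% in the interaction. The summed linear level of the 10 astrocyte and Bergmann glia markers that reached level 5 was 12686 to 16450 in NdpKO;Ptch+/-, 8145 to 14473 in NdpKO, 8658 to 11448 in Ptch+/- and 15691 to 19900 in WT GNPs, so that WT, with the lowest Nfia, had the highest sum, and neither single mutant overlapped it. The summed microglial level was 564 to 884 in NdpKO;Ptch+/-, 464 to 727 in NdpKO, 565 to 988 in Ptch+/- and 982 to 1609 in WT GNPs. Of the astrocyte and Bergmann glia markers that reached level 5, 1 of 10 was called lower in NdpKO and 1 of 10 in Ptch+/- against WT, and 0 of 8 microglial markers in either. Endothelial markers had median log2 differences of -0.76 in NdpKO and -0.71 in Ptch+/- against WT, with 0 of 9 positive in each, and 1.43 in the interaction, with 9 of 9 positive. Purkinje cell and interneuron markers had -0.45, -0.73 and 1.33, with 0, 0 and 4 of 4 positive. None of either list was called, and the medians over all probes were 3.42e-04, 2.85e-04 and -5.36e-04. The part of any of these in the Nfia difference was not tested. Of the 8 glial genes linked to the family, 0 were called higher and 2 lower in Ptch+/- than in WT GNPs, which were Sox9 (11.54 ± 0.06 in Ptch+/- and 12.09 ± 0.10 in WT, SD, n = 4 each, limma adjusted p = 0.0477) and Zcchc24 (difference -0.69, adjusted p = 0.00427). In NdpKO against WT, Gfap, Apcdd1 and Zcchc24 were called lower, by 2.16, 1.13 and 0.72 on the log2 scale. Among the granule neuron genes linked to the family, Cntn2 was called higher in Ptch+/- than in WT GNPs, at 10.69 ± 0.03 and 10.32 ± 0.07 (SD, n = 4 each, limma adjusted p = 0.0230), and 0 of the 9 were called lower. The interaction was called for Cntn2 and Nfatc4, at -0.46 and -1.86, and with the opposite sign for Sox9 and Zcchc24, at 0.85 and 1.13. Of the granule lineage genes, Zic2, Grin2b and Kcnd2 were called higher in Ptch+/- than in WT, by 0.76, 1.18 and 0.71.

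**Figure D3:**
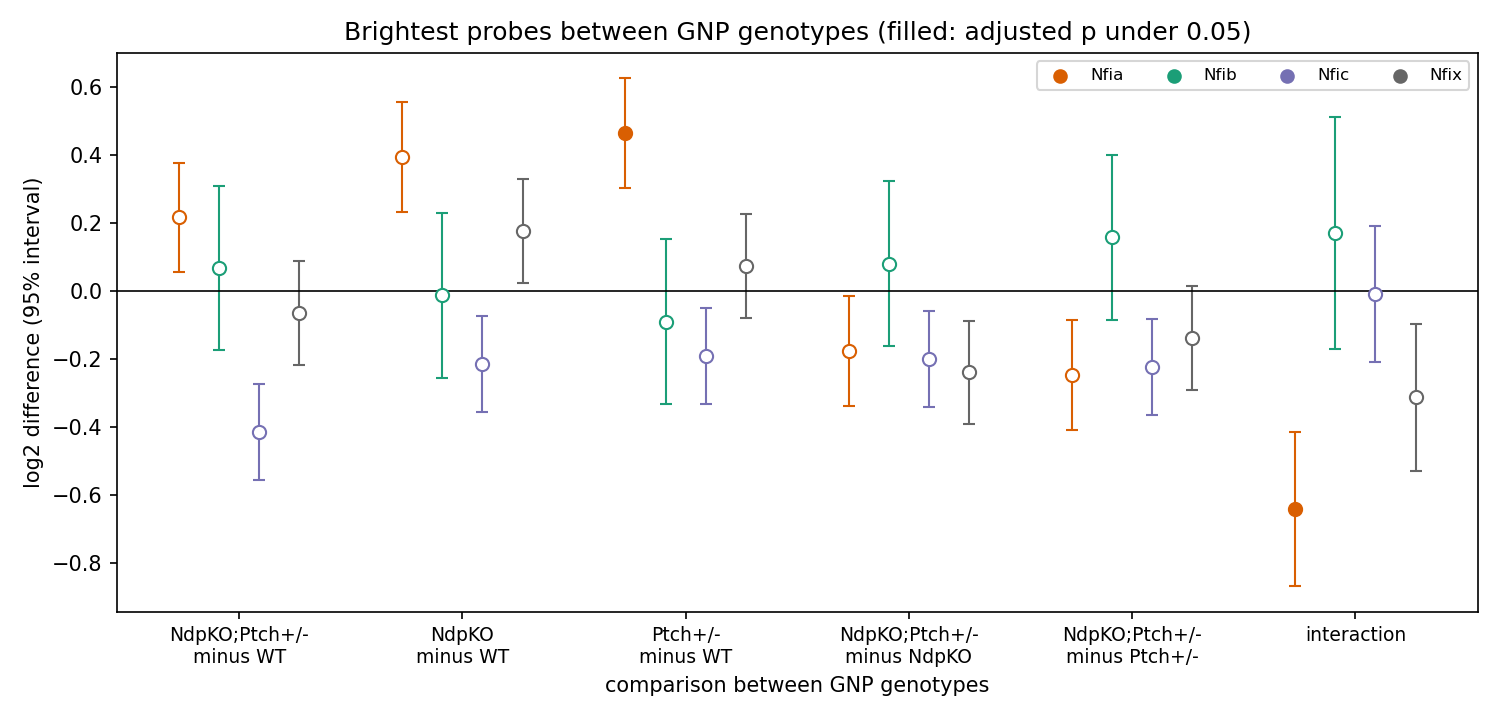
Log2 difference with its 95% interval (vertical axis) of the brightest probe of each gene in 5 comparisons of GNP genotypes and the interaction (horizontal axis). Filled points are called at an adjusted p under 0.05. Only Nfia in Ptch+/- against WT (0.46) and in the interaction (-0.64) is filled, and the Nfic points against WT all lie below 0.

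Nfic had its highest level in WT GNPs, where Nfia had its lowest, while among the mutants the means of both genes had the order Ptch+/-, NdpKO and NdpKO;Ptch+/- from high to low. Its brightest probe had 8.06, 7.85, 8.05 and 7.82 in NdpKO;Ptch+/-, 8.19, 8.19, 8.12 and 8.08 in NdpKO, 8.01, 8.31, 8.20 and 8.15 in Ptch+/- and 8.36, 8.39, 8.38 and 8.31 in WT GNPs. No array of any mutant group reached the lowest WT array, a lower position without overlap that 1.80%, 2.57% and 4.48% of all probes had in NdpKO;Ptch+/-, NdpKO and Ptch+/- GNPs. The difference was -0.42 ± 0.07 for NdpKO;Ptch+/- against WT and just missed the threshold (limma adjusted p = 0.0502), while NdpKO and Ptch+/- against WT gave -0.22 and -0.19 (adjusted p = 0.207 and 0.197). The first of these was called when NdpKO;Ptch+/- replicate 1, Ptch+/- replicate 1 or Ptch+/- replicate 2 was left out (limma adjusted p = 0.0435, 0.0315 and 0.0401). It was also called without the 2 arrays that stood apart, picked after seeing the data (-0.46, limma adjusted p = 0.0315). The other 2 bright Nfic probes did not share the pattern, with differences of -0.10 and -0.33 in NdpKO;Ptch+/- and of 0.09 and 0.05 in Ptch+/- against WT, all within the overlap of the groups. ILMN_3022492 was called lower in Ptch+/- than in WT (limma adjusted p = 0.0372), but both groups lay near background, at 4.13 to 4.16 and 4.16 to 4.21, so no fold is given.

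The brightest Nfib probe was not called in any GNP comparison, and its differences of -0.09 to 0.17 were within the spread of the groups (SD of up to 0.20, n = 4). One of its dimmer probes, ILMN_1239265, was called higher in NdpKO than in WT GNPs. It had 7.91, 7.82, 8.19 and 7.83 in NdpKO and 7.42, 7.37, 7.58 and 7.38 in WT, a difference of 0.50 ± 0.09 (SE, limma adjusted p = 0.0469). ILMN_1256427, which differed strongly in the tumours, was 1.09 higher in Ptch+/- than in WT with no overlap, at 7.45, 7.30, 6.64 and 7.30 against 5.91, 5.70, 6.25 and 6.48, but was not called (limma adjusted p = 0.187). For NdpKO against WT, 4 of the 21 family probes were higher without overlap, 2 of them Nfib, and for Ptch+/- against WT 3 were, where 2.90% and 4.79% of all probes were. Averaging all 11 Nfib probes turned the direction for Nfib, to 0.25 in NdpKO and 0.19 in Ptch+/- against WT, neither of them called.

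The brightest Nfix probe stood lowest in NdpKO;Ptch+/- GNPs, at 12.56, 12.52, 12.52 and 12.52, against 12.91, 12.69, 12.59 and 12.89 in NdpKO, 12.63, 12.74, 12.68 and 12.63 in Ptch+/- and 12.62, 12.72, 12.43 and 12.62 in WT GNPs. The compound mutant did not overlap either single mutant (a lower position that 1.40% of all probes had against NdpKO and 2.65% against Ptch+/-), but overlapped WT. Its difference was -0.24 ± 0.07 against NdpKO (SE, limma adjusted p = 0.873) and -0.14 ± 0.07 against Ptch+/- (adjusted p = 0.626), and neither was called. On the other 3 Nfix probes WT had the lowest mean, for instance 10.31 in NdpKO;Ptch+/- and 10.24 in WT for ILMN_2626432, and the average of all Nfix probes differed by 0.042 between NdpKO;Ptch+/- and WT. The 3 Nfix probes bright on all arrays all gave negative interaction terms, -0.31, -0.39 and -0.29, with limma adjusted p of up to 0.173.

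No pair of the 4 genes passed the test of a relation across the 16 GNP arrays. Of 6 pairs, the closest was Nfia with Nfix, with a Pearson correlation of 0.43 (permutation p = 0.0967, adjusted over the pairs 0.580) and a Spearman correlation of 0.50 (permutation p = 0.0521, adjusted 0.313). Without the 2 arrays farthest in Nfia, both WT, Pearson's r was 0.29. The other 5 pairs had Pearson correlations of -0.24 to 0.21. With the genotype means taken out, and with no test, Nfia with Nfix had 0.12. Nfia with Nfic went from -0.24 to 0.33, and the remaining pairs had -0.015 to 0.17. Among 6913 genes whose brightest probe had a mean of at least 5, those most like Nfia over the 16 GNP arrays were Ankrd12 (r = 0.92), Med14 (0.91), Zfpm2 (0.91), Scrt2 (0.91) and Ccnd2 (0.91), which is a cyclin of cycling GNPs. With the genotype means taken out these correlations were 0.56 to 0.80, and they were 0.64 to 0.82 for the genes named for Nfib, 0.18 to 0.67 for Nfic and 0.56 to 0.79 for Nfix. Those most like Nfib were Tmem101, Morc2a, Smad3, Adgrb3 and Lum (0.69 to 0.78), those most like Nfic were Zfp330, Rnd3, Ret, Ccdc124 and Lims2 (0.77 to 0.81), and those most like Nfix were Trpc4ap, Mad1l1, Kcnk1, Ky and Zmiz2 (0.74 to 0.79). They are descriptions over arrays that share genotypes and a normalization, with no test.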

How the data were processed

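RNA of 16 GNP and 2 tumour samples was hybridised to Illumina MouseWG-6 v2.0 BeadChips, 1 array per sample. The authors deposited log2 values that they had background-corrected against negative control probes and quantile normalized with neqc of limma, in versions not given in the sources used here. This gave every array the same median, so a shift of all probes together cannot be seen. Scanner files were not used here, so detection calls and chip positions were not analysed. Groups came from the sample titles. Genes were named from the platform annotation, in which 34885 probes have 1 symbol, 18 several and 10378 none, and only probes with 1 symbol were named. Differences were fitted with limma 3.58.1 in R 4.3.3 (lmFit, contrasts and eBayes, two-sided), with 1 mean per genotype over 16 GNP arrays, or with tissue and genotype over 2 tumour and 8 GNP arrays, and adjusted over 45281 probes by Benjamini-Hochberg with a threshold of 0.05. The script was tested on simulated data. Where a group mean was below level 5, a fold is given only as a lower bound against that level. Named genes were the 4 members, lists of linked genes and cell type markers with the brightest probe of each gene, and the 5 genes most correlated with each member. The members, lists and level were chosen with earlier results of these data known. Correlations used 100000 permutations. Alternatives were a filter on dim probes, cyclic loess, an intensity trend with a robust prior, array weights, a replicate block, fits on the compared groups alone, other handling of an array with disagreeing labels, averaging all probes of a gene, tumours against all 16 GNP arrays, and leaving out arrays. Replicate numbers were not taken to pair samples. P-values measure the spread between arrays.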

Additional observations from a re-analysis of the deposited data

Results flagged for a closer look

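In 57 groups of 4 arrays, 5 held an array far from the other 3 by Dixon's test, where chance gives about 1 in 20. These were WT replicate 4 for Nfia (9.74), Ptch+/- replicate 1 for Nfib ILMN_1239265 (7.84), NdpKO replicate 1 for Nfic ILMN_1218384 (8.13), NdpKO;Ptch+/- replicate 1 for the brightest Nfix probe (12.56) and Ptch+/- replicate 2 for Nfix ILMN_2606700 (9.64). Each was the highest of its group.

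The tumour of each genotype moved a different way from its own GNPs for 2 Nfix probes. ILMN_2626432 was 0.73 higher on the log2 scale in the NdpKO;Ptch+/- tumour than in its GNPs, against -0.13 in Ptch+/-. For ILMN_2606700 these values were 0.72 in NdpKO;Ptch+/- and -0.58 in Ptch+/-. With 1 tumour per genotype these differences between genotypes were not tested.

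The effect of Ptch heterozygosity on Nfia in GNPs differed between NdpKO and intact Ndp, with an interaction of -0.64 (limma, Benjamini-Hochberg adjusted p = 0.0330) that was lost without 12 of the 16 arrays taken singly.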

How the results depend on the processing

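Under alternatives other than leaving out 1 array, 212 values of the 4 genes kept their direction and side of the threshold, 10 became called, 2 lost their call, 12 turned direction and 4 differences between tumours moved. Total counts of called probes moved more than those values. Where not named otherwise, the cause was not tested.

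With only probes of a mean of at least 5, where fewer probes were tested, the comparison of NdpKO;Ptch+/- with Ptch+/- called 18 probes, NdpKO against WT 547, Ptch+/- against WT 1393, NdpKO;Ptch+/- against WT 47 and the interaction 1396. The 0.39 of Nfia in NdpKO, the -0.42 of Nfic in NdpKO;Ptch+/- against WT and the 0.34 of Nfix in tumours were then called. With the intensity trend and robust prior the counts were 36, 317, 1010, 50 and 795, and the same 0.39 of Nfia and 0.34 of Nfix were called. Cyclic loess called Nfic in NdpKO;Ptch+/- against WT (-0.43) and Nfix in tumours (0.41), and turned the Nfic interaction to 0.0021. Array weights gave 28 probes for NdpKO;Ptch+/- against Ptch+/-, 825 for Ptch+/- against WT and 619 for the interaction, called Nfic in NdpKO;Ptch+/- against WT (-0.43) and turned Nfib in NdpKO against WT to 0.012. Fits on the compared groups alone, with fewer arrays, gave 1, 4 and 3 probes when NdpKO;Ptch+/- was set against Ptch+/-, NdpKO against WT, and NdpKO;Ptch+/- against WT. With replicate 2 of NdpKO;Ptch+/- as NdpKO, 64 probes were called for NdpKO against WT, 0 for NdpKO;Ptch+/- against NdpKO and 2 for the interaction, which was no longer called for Nfia (-0.59). Nfib in NdpKO against WT became 0.0037 and the Nfic interaction 0.080.

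The replicate block called 1, 52, 263, 12 and 72 probes, in the order of the comparisons given first, and the Nfia interaction of -0.64 was no longer called (limma adjusted p = 0.0668). It changed no other call of the 4 genes. Same-numbered arrays did not deviate together (median correlation -0.041 over 24 pairs, and 4 of 16 arrays correlated best with their own number), so the numbers were not taken as pairs.

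Averaging all probes of a gene turned Nfib to -0.13 (NdpKO;Ptch+/- against Ptch+/-), 0.25 (NdpKO against WT), 0.19 (Ptch+/- against WT), -0.19 (NdpKO;Ptch+/- against NdpKO) and -0.38 (interaction), and Nfix to 0.042 in NdpKO;Ptch+/- against WT. The difference between tumours became 0.13 for Nfia, 0.59 for Nfib, -0.17 for Nfic and 0.93 for Nfix.

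Leaving out NdpKO replicate 4 and NdpKO;Ptch+/- replicate 1, an alternative chosen after seeing the data, gave 922, 1070, 1404, 76 and 2577 probes in the same order and 656 for NdpKO;Ptch+/- against NdpKO. Nfia in NdpKO (0.40) and Nfic in NdpKO;Ptch+/- against WT (-0.46) were then called, and Nfib became 0.034 in NdpKO against WT and -0.011 in NdpKO;Ptch+/- against NdpKO.

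Leaving out each array in turn, counts of called probes ranged from 5 to 232 (NdpKO;Ptch+/- set against Ptch+/-), 25 to 401 for NdpKO against WT, 116 to 777 for Ptch+/- against WT, 2 to 8 for NdpKO;Ptch+/- against NdpKO, 13 to 58 for NdpKO;Ptch+/- against WT, 26 to 1221 for the interaction and 5255 to 6402 for the tumours. Log2 differences ranged from 0.37 to 0.45 for Nfia in NdpKO against WT (called without NdpKO;Ptch+/- replicate 1 or 4 or WT replicate 4), 0.43 to 0.52 for Nfia in Ptch+/- against WT, -0.70 to -0.58 for its interaction, -0.46 to -0.37 for Nfic in NdpKO;Ptch+/- against WT and -0.062 to 0.038 for its interaction. For Nfib they were -0.094 to 0.039 in NdpKO and -0.0039 to 0.16 in NdpKO;Ptch+/- against WT, so their direction is not settled, and 0.42 to 0.56 in tumours. Nfix in tumours ranged from 0.079 to 0.61.

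Precision was limited by 4 arrays per genotype and 1 per tumour, and by near-background levels for 2 probes on all arrays and 4 more in all GNPs. The labelled strain background differed between NdpKO and WT GNPs but not between Ptch+/- and WT GNPs. By their description, tumours and GNPs also differed in age and purification, which cannot be told apart from the tumour state.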
